A study of Sus scrofa with 207 samples.

Results

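The solute carriers, genes whose symbol is SLC with a family number, were examined in muscle of 207 crossbred commercial pigs. A gene was a member when a probe set of the array carried an SLC symbol as its only gene symbol, and SLC2A1, SLC25A20 and SLC27A1 were set aside. Out of 6765 genes named by a single symbol and 23935 probe sets tested, the rule gave 78 genes with 1 probe set and 39 with several, and the probe set with the highest mean over the arrays stood for its gene. Of these genes 20 belong to the SLC25 family, 67 code for carriers of the plasma membrane, 27 for carriers of intracellular membranes or of mixed location, and 3 for adaptors or regulators that bear an SLC symbol without being carriers. The SLC25 family is treated here as mitochondrial, although SLC25A17 serves peroxisomes.

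All animals form a single group: crossbred Pix(DLxDE) pigs of a commercial herd, sampled at slaughter with an end weight of 110 kg on average, and 1 Affymetrix Porcine Genome Array for each animal. The labels give no age, sex, sire or slaughter day, and name the tissue only as muscle. Drip loss, the share of weight lost as fluid from longissimus muscle kept hanging in the cold, ran from 1.45 to 10.82% with a median of 5.26% (mean 5.37 ± 2.22%, SD, n = 207). Fat area over the longissimus muscle ran from 8.1 to 26.7 cm2 with a median of 14.5 cm2 (mean 15.0 ± 3.15 cm2, SD) and was missing for 8 animals.

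Solute carriers move small molecules and ions across membranes, by facilitated diffusion, exchange or co-transport with an ion. In skeletal muscle the plasma membrane carriers bring in glucose, creatine, carnitine and amino acids and release lactate, and the SLC25 carriers pass ADP, ATP, phosphate and metabolites across the inner mitochondrial membrane. Nucleotide sugars, metal ions and phosphorylated sugars cross the membranes of the endoplasmic reticulum, Golgi and lysosomes through other families of the group.

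The deposited values are log2 expression values with a floor at 4, and array medians lay between 5.96 and 6.18. The 15 skeletal muscle markers measured had means from 12.46 to 14.14, so the defining genes of the labelled tissue were present. There were 24 low-correlation arrays, whose median correlation with the rest lay more than 3 scaled median absolute deviations below that of all arrays, down to 0.944 against a median of 0.978. They came from animals with a drip loss of 4.20 ± 1.55%, against 5.53 ± 2.25% for the other arrays (SD). Animals in the top 25% of a trait are called high and those in the bottom 25% low, 52 and 52 for drip loss and 50 and 52 for fat area. The 3' to 5' difference, taken between control probes at the ends of the actin and elongation factor transcripts as a sign of RNA length, had a median of 2.06 log2 units in the high-drip animals and 2.08 in the low-drip animals. Over all 207 animals its Pearson r with drip loss was -0.131 and Spearman rho -0.101 (permutation p 0.0581 and 0.149), with r = -0.124 without the 2 farthest animals and -0.111 centred within blocks of 100 consecutive title numbers. Its median was 2.22 on the low-correlation arrays, against 2.04 on the other arrays. In whole muscle, fewer cells of a type and less RNA per cell cannot be told apart.

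The mitochondrial carriers stood among the brightest SLC genes. Means lay above the median of all probe sets, 6.10, for 17 of the 20 SLC25 genes and 35 of the 67 plasma membrane genes. So did those of 16 of the 27 intracellular genes and all 3 adaptors. Together these were 71 of the SLC genes, a smaller share than the 72.2% of all genes that lay above this median. Median class means were 7.57 for SLC25, 6.15 for the plasma membrane carriers and 6.32 for the intracellular ones. On 11 of the SLC genes at least 1 animal was at the floor. Signals of different probe sets depend on their probes as well as on the RNA, so these are descriptions of the array signal and not a ranking of transcripts.

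**Figure D1:**
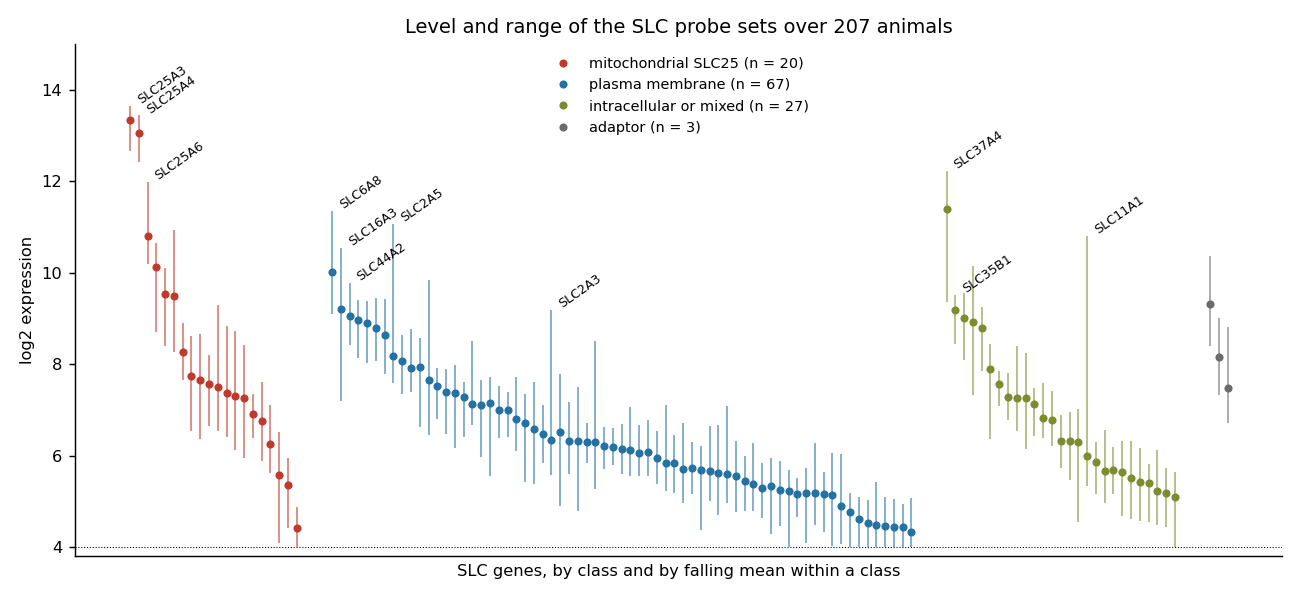
Log2 expression of the SLC genes, grouped by class and ordered by falling mean within a class. Points are medians and lines run from the lowest to the highest of 207 animals, and the dotted line is the floor at 4. SLC25A3 and SLC25A4 stand above 12 in every animal, and the lines of SLC11A1 and SLC2A5 reach far above their medians.

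Among the energy carriers of the mitochondrion, SLC25A3, the phosphate carrier, ran from 12.66 to 13.65 over the animals with a median of 13.34. SLC25A4, the adenine nucleotide translocase of heart and muscle, ran from 12.42 to 13.44 with a median of 13.06. Both were high in every animal, within about the same narrow range. The other adenine nucleotide translocases were dimmer: SLC25A6 had a median of 10.81 (10.20 to 11.99) and SLC25A5 a median of 7.51 (6.55 to 9.29). The aspartate-glutamate carrier SLC25A12 had a median of 10.13 (8.70 to 10.66). Its partner in the malate-aspartate shuttle, the oxoglutarate carrier SLC25A11, had a median of 9.54 (8.4 to 10.10). SLC25A21, which carries oxodicarboxylates, had a median of 9.49 with a wide range, 8.26 to 10.93. At the dim end, SLC25A51 averaged 4.38 and reached the floor in some animals.

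At the plasma membrane the brightest carrier was SLC6A8, which takes up creatine, with a median of 10.02 (9.09 to 11.35). SLC16A3, the monocarboxylate transporter that releases lactate from glycolytic fibres, had a median of 9.21 (7.19 to 10.54). SLC3A2, the heavy chain of several amino acid exchangers, had a median of 8.90 (8.02 to 9.39). SLC39A14, an importer of zinc, iron and manganese, had a median of 7.92 (7.40 to 8.78). SLC2A4, the insulin-regulated glucose transporter of muscle and fat, had a median of 7.38 (6.17 to 7.99). The carnitine carrier SLC22A5 had a median of 5.85 (5.23 to 7.11), and the sodium-calcium exchanger SLC8A1, known from heart, a median of 4.76 with its lowest animal at the floor. Both lie below the median probe set, which leaves little signal above the array's lower end.

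Inside the cell, SLC37A4, the glucose-6-phosphate transporter of the endoplasmic reticulum, had a median of 11.40 (9.35 to 12.23). SLC35B1, an ATP-ADP exchanger of the same membrane, had a median of 9.18 (8.44 to 9.52). The adaptor SLC2A4RG, a DNA-binding regulator of the SLC2A4 gene, had a median of 9.32 (8.39 to 10.36).

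Spread between animals was that of an ordinary gene, with a median SD of 0.24 over the SLC genes and 0.25 over all genes. SLC25A3 was the steadiest member, with an SD of 0.14, at the 1.35th percentile of the SDs of all genes. A second, dimmer SLC25A3 probe set, with a mean of 6.60, had r = 0.116 with the one used. The low SD of SLC25A3 thus rests on 1 probe set. The most variable was SLC5A4, of the sodium-glucose cotransporter family, with a median of 6.51, a range of 4.91 to 7.78 and an SD of 0.59. SLC25A21 and the cationic amino acid transporter SLC7A1, which ran from 6.46 to 9.84 with a median of 7.66, both had an SD of 0.54. SLC2A3, a glucose transporter of neurons and leukocytes, followed with 0.52 (median 6.34, 5.57 to 9.19). SLC25A33, a pyrimidine nucleotide carrier (median 7.26, 5.96 to 8.41), and SLC11A1, a metal transporter of phagocytes (median 5.99, 5.34 to 10.80), had an SD of 0.49. The list of the 10 widest SDs was completed by SLC16A3 at 0.45, SLC25A24 and SLC25A17 at 0.44 and SLC25A5 at 0.42. Of these 10 genes 5 belong to SLC25, the family of the steadiest member.

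Blocks of 100 consecutive title numbers, whose meaning the labels do not give, held a median of 7.19% of an SLC gene's variance, against 9.20% over all genes. The highest share, 31.3%, was that of SLC46A3, a lysosomal carrier, which is named here after its values were seen. Its block medians ran from 5.4 to 6.11, and its median was 6.03 in the 33 animals of the higher number series and 5.61 in the others. SLC35B1 followed with 21.0% and block medians from 8.94 to 9.28.

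Of the SLC genes, 3 passed for drip loss in limma over all tested probe sets: SLC35B1 and SLC25A4 rose and SLC28A1 fell with increasing drip loss. That is 2.56% of the SLC genes, beside 6.08% of all genes and 4.61% of all probe sets. Of all genes 3.96% rose and 2.11% fell, so the share of SLC genes was below the background. An unadjusted p under 0.05 was reached by 25 SLC genes, or 21.4%, beside 23.9% of all genes. Slopes were positive for 74 SLC genes (63.2%), beside 61% of all genes, with a median of 0.0073 log2 units per SD of drip loss, beside 0.0080 over all genes.

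SLC35B1 had values of 9.0, 9.24 and 9.50 (lowest, median and highest) in the high-drip animals, against 8.44, 9.12 and 9.52 in the low-drip animals. The groups overlapped, and the lowest values belonged to low-drip animals. The slope was 0.051 ± 0.012 log2 units per SD of drip loss (SE, n = 207; 95% interval 0.027 to 0.074), or 3.57% per SD, with an adjusted p of 0.0070 in limma. With blocks as a covariate the slope was 0.035 ± 0.012 with a limma adjusted p of 0.131. Over the animals SLC35B1 was lower where the 3' to 5' difference was larger (Pearson r = -0.188, Spearman rho = -0.126, permutation p 0.00683 and 0.0712, adjusted 0.0203 and 0.165 over the 351 relations of the SLC genes with 3 array measures: this difference, the macrophage marker mean and the median correlation). With that difference as a covariate the slope was 0.047 ± 0.012 and the limma adjusted p 0.017.

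SLC25A4 had values of 12.74, 13.09 and 13.28 in the high-drip animals, against 12.42, 13.04 and 13.29 in the low-drip animals. The groups overlapped almost fully, and the low-drip animals reached further down. The slope was 0.039 ± 0.012 (SE, n = 207; 95% interval 0.015 to 0.063), or 2.74% per SD, with a limma adjusted p of 0.044. SLC25A4 had a median of 12.78 on the low-correlation arrays, against 13.08 on the other arrays. Without those arrays the slope was 0.023 ± 0.011 and the limma adjusted p 0.334, and with blocks as a covariate it was 0.025 ± 0.013 with an adjusted p of 0.385. With the 3' to 5' difference as a covariate the slope was 0.038 ± 0.012 with an adjusted p of 0.073, and r between SLC25A4 and that difference was -0.084 (rho = -0.031, permutation p 0.231 and 0.653).

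SLC28A1, a sodium-coupled importer of pyrimidine nucleosides, had values of 5.67, 6.05 and 6.74 in the high-drip animals, against 5.68, 6.20 and 7.06 in the low-drip animals. The groups overlapped, with the highest values among low-drip animals. Its mean of 6.15 lies close to the median probe set. The slope was -0.058 ± 0.018 (SE, n = 207; 95% interval -0.093 to -0.024), or -3.97% per SD, with a limma adjusted p of 0.033. Over the animals SLC28A1 was higher where the 3' to 5' difference was larger (Pearson r = 0.423, Spearman rho = 0.434, both permutation p 1e-05, adjusted over 351 relations 6.5e-05 and 8.8e-05). Without the 2 farthest animals r was 0.428, and centred within blocks 0.420. With that difference as a covariate the slope was -0.045 ± 0.016 and the limma adjusted p 0.115. SLC28A1 had a median of 6.22 on the low-correlation arrays, against 6.11 on the other arrays. Without the low-correlation arrays the slope was -0.035 ± 0.017 with an adjusted p of 0.342, and with blocks as a covariate -0.045 ± 0.018 with an adjusted p of 0.250.

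All 3 slopes kept their sign under every alternative run. With blocks of title numbers 0 of the SLC genes passed in limma, beside 0.828% of all genes. Without the low-correlation arrays SLC35B1 was the 1 SLC gene that passed, with a slope of 0.040 ± 0.011 and a limma adjusted p of 0.045, beside 1.30% of all genes.

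**Figure D2:**
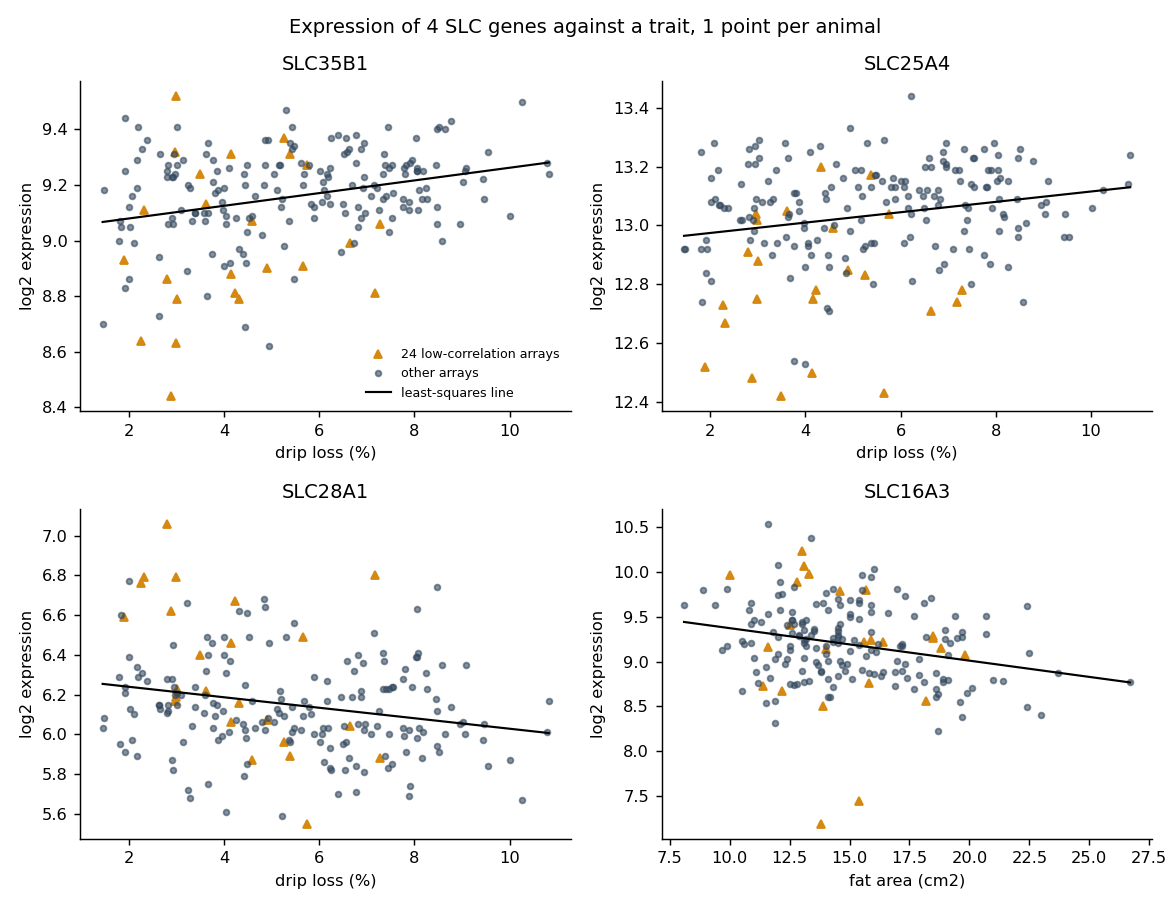
Log2 expression of SLC35B1, SLC25A4 and SLC28A1 against drip loss in percent and of SLC16A3 against fat area in cm2, with 1 point per animal and a least-squares line. Triangles mark the 24 low-correlation arrays. The clouds are wide around each line, with several of the lowest SLC25A4 values on low-correlation arrays and the 2 lowest SLC16A3 values likewise.

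Set by location, 1 of the 20 SLC25 genes passed for drip loss, SLC25A4, which rose, and 1 of the 67 plasma membrane genes, SLC28A1, which fell. These were 5% and 1.49% of their classes, beside 6.08% of all genes, and a count of 1 in classes of this size says little. Slopes were positive for 13 of the 20 SLC25 genes with a median of 0.011, and for 42 of the 67 plasma membrane genes with a median of 0.0060 log2 units per SD. Among brighter genes, those with a mean above the median probe set, the counts were 10 of 17 for SLC25 and 24 of 35 for the plasma membrane. Of the 27 intracellular genes 1 passed, SLC35B1, or 3.7%, likewise a count of 1, and 19 had a positive slope. The 3 adaptors all had negative slopes and 0 passed in limma, with unadjusted p under 0.05 for 2 of them, and SLC2A4RG had a slope of -0.051 ± 0.021 with a limma adjusted p of 0.145. In shares, slopes were positive for 65% of the SLC25 genes and 62.7% of the plasma membrane genes, near the share of all genes given above, and no test between the classes was made.

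By substrate, SLC35B1 was counted with the nucleotide sugar family SLC35 that its symbol gives. Of the 13 genes of the nucleoside and nucleotide sugar families 2 passed, SLC35B1 and SLC28A1, with opposite signs, beside 6.08% of all genes, and nothing particular to the group is read from that count. For the 14 sugar carriers, 17 amino acid carriers, 13 metal carriers and 11 carriers of sodium, chloride, calcium or acid-base ions, 0 passed in limma, with an unadjusted p under 0.05 for 3, 2, 5 and 2 of them, beside 23.9% of all genes. Several genes with steep slopes were also variable and did not pass. SLC2A3 had the lowest slope of the members, -0.089 ± 0.035 with a limma adjusted p of 0.126. SLC7A1 had a slope of -0.072 ± 0.037 with a limma adjusted p of 0.264. SLC2A4 had a slope of 0.011 ± 0.021, with a 95% interval of -0.029 to 0.052 and a limma adjusted p of 0.820.

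For fat area 0 of the SLC genes passed in limma, beside 0.148% of all genes, and 12 had an unadjusted p under 0.05, or 10.3%, beside 7.94% of all genes. Slopes were positive for 44 of the SLC genes, with a median over the SLC genes of -0.0073 log2 units per SD of fat area. As a share these 44 were below the 46.8% of all genes with a positive slope, and this difference was not tested. The median slope over all genes was -0.0015. The smallest limma adjusted p was that of SLC16A3. It had values of 8.23, 9.0 and 9.73 in the high-fat animals, against 8.32, 9.30 and 10.54 in the low-fat animals. The groups overlapped, and the highest values belonged to low-fat animals. The slope was -0.114 ± 0.031 (SE, over the animals with a fat area; 95% interval -0.176 to -0.053), or -7.62% per SD, with a limma adjusted p of 0.138. Under 5 principal components as covariates the slope was -0.128 ± 0.027 and passed, with a limma adjusted p of 0.0044. SLC2A4 had a slope of -0.022 ± 0.021 on fat area, with a 95% interval of -0.064 to 0.020.

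SLC16A3 was also the 1 SLC gene whose slopes on the 2 traits differed. On drip loss its slope was 0.071 ± 0.031 with a limma adjusted p of 0.173, with values of 8.56, 9.22 and 10.54 in the high-drip animals, against 7.44, 9.21 and 10.24 in the low-drip animals. With both traits in a single fit, the slope on drip loss minus that on fat area was 0.17 ± 0.042 (SE, over the animals with both traits; 95% interval 0.088 to 0.253), with a limma adjusted p of 0.037, beside 0.347% of all probe sets passing. With blocks of title numbers as a covariate the difference was 0.18 ± 0.043 and its limma adjusted p 0.052, and without the low-correlation arrays it was 0.17 ± 0.038 with an adjusted p of 0.032. SLC16A3 was lower where macrophage markers were higher (Pearson r = -0.360, Spearman rho = -0.305, both permutation p 1e-05, and r = -0.289 without the 2 farthest animals), and the part of those markers in the result was not tested.

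**Figure D3:**
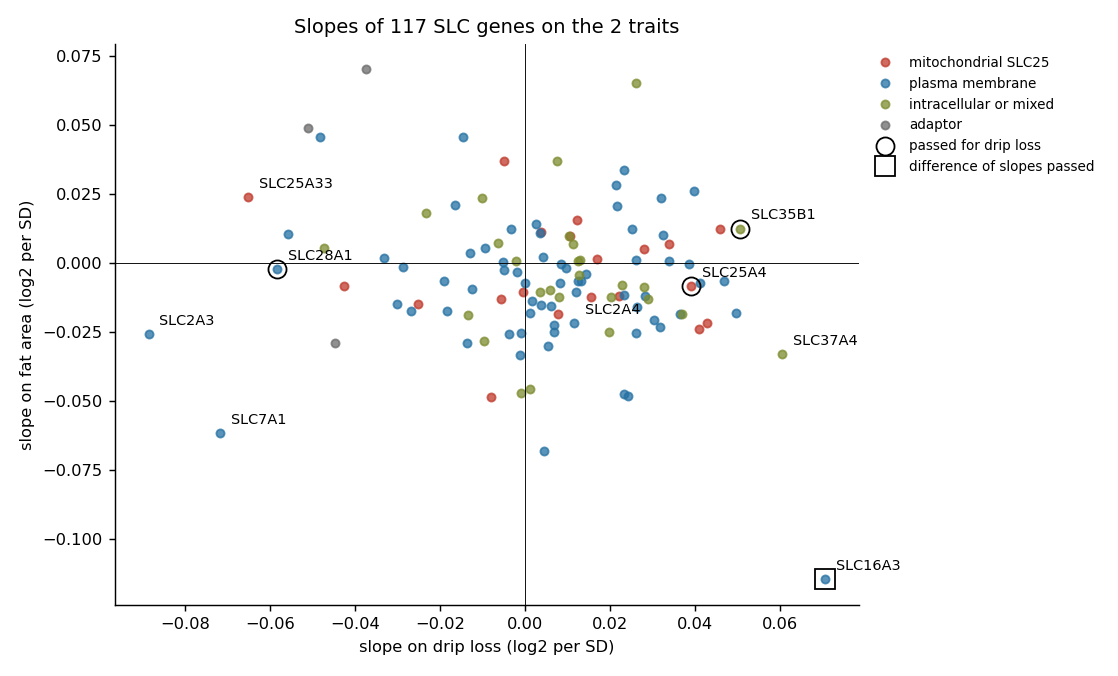
Slopes of the SLC genes on drip loss (horizontal) and on fat area (vertical), both in log2 units per SD of the trait, coloured by class. Circles mark SLC35B1, SLC25A4 and SLC28A1, which passed for drip loss, and the square marks SLC16A3, whose 2 slopes differed. Both traits were measured on the same animals, and most genes lie near the origin.

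Genes that work with these carriers were counted in the same way. Of all genes 6.08% passed for drip loss and 0.148% for fat area, so a count of 0 in lists as short as these says little. Of 15 measured carriers and partners without an SLC symbol, among them the mitochondrial pyruvate carrier subunits MPC1 and MPC2, the outer membrane channels VDAC1, VDAC2 and VDAC3, and BSG, the chaperone of monocarboxylate transporters, 0 passed for either trait in limma. BSG had a mean of 9.28 and a slope of -0.012 ± 0.014 on fat area. Of 12 measured genes of SLC2A4 vesicle trafficking, 0 passed for either trait. TBC1D1, a regulator of that traffic, had a slope of -0.113 ± 0.031 on fat area with a limma adjusted p of 0.138. The syntaxin STX4, at which the vesicles dock, had a slope of 0.038 ± 0.013 on drip loss with a limma adjusted p of 0.054.

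Pairs of SLC genes were then followed over the 207 animals. The adenine nucleotide translocase SLC25A4 and the phosphate carrier SLC25A3, which together supply ADP and phosphate to the ATP synthase, gave the highest correlation of all 6786 pairs (Pearson r = 0.767, Spearman rho = 0.750). Each permutation p was 1e-05, the smallest that 100000 permutations can give, and the adjusted p over the 6 pairs of the prepared list was 3e-05 for r and 6e-05 for rho. Without the 2 animals farthest from the median of SLC25A3 r was 0.737, centred within blocks 0.767, and without the low-correlation arrays 0.666. It was 0.793 in the lower number series and 0.669 in the higher. The second, dimmer SLC25A3 probe set had r = 0.116 with the one used, so the pair rests on 1 probe set of SLC25A3.

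SLC25A4 also went with the aspartate-glutamate carrier SLC25A12 (r = 0.597, rho = 0.580, r = 0.537 without the low-correlation arrays), a pair outside the prepared list whose adjusted permutation p over all pairs was 0.00021 for r and 0.00029 for rho. SLC25A3, SLC25A12 and SLC25A4 were also higher on arrays with a higher median correlation (r = 0.581, 0.565 and 0.503, rho = 0.400, 0.429 and 0.380). The r of SLC25A3 was the highest of the SLC genes for that measure. Without the low-correlation arrays r was 0.255 for SLC25A3, 0.301 for SLC25A12 and 0.248 for SLC25A4. The part of the median correlation in the pairs of these genes was not tested. The shuttle partners SLC25A11 and SLC25A12 were more loosely related (r = 0.318, rho = 0.254, permutation p 1e-05 and 0.00021, adjusted 3e-05 and 0.00063). For them r was 0.181 without the 2 animals farthest from the median of SLC25A11, 0.347 centred within blocks, 0.396 in the lower number series and 0.110 in the higher. The translocases SLC25A4 and SLC25A6 gave r = -0.286 and rho = -0.153 (permutation p 3e-05 and 0.0271, adjusted 6e-05 and 0.0543), so the pair passed for r and not for rho. Without the low-correlation arrays r was -0.070. SLC25A6 was lower on arrays with a higher median correlation (r = -0.457, rho = -0.302), opposite to SLC25A4, and the part of that measure in this pair was not tested. SLC25A4 and SLC25A5 gave r = 0.055 and rho = 0.086 (permutation p 0.433 and 0.219, adjusted 0.433 and 0.219). SLC2A4 and SLC25A4 gave r = 0.151 and rho = 0.116 (permutation p 0.0313 and 0.0969, adjusted 0.0469 and 0.116). The iron-related carriers SLC25A37 and SLC25A38 gave r = -0.130 and rho = -0.137 (permutation p 0.0609 and 0.0485, adjusted 0.0731 and 0.0727).

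Most pairs of SLC genes had an r near 0. Over the 190 pairs within SLC25 the median r was 0.0097, over the 2211 pairs within the plasma membrane carriers 0.022, and over the 1340 pairs between both classes 0.0064. After adjustment over all 6786 pairs, 22.1% had a permutation p for r under the threshold of 0.05, and 27.9% of the pairs within SLC25 did. Among pairs of brighter genes, both with a mean above the median probe set, the order was the other way. There the share was 34.2% of all pairs and 29.4% within SLC25. It was 33.95% within the plasma membrane carriers and also between both classes. These shares were not computed over pairs of all genes, so they are not read as particular to SLC genes.

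Of the genes that passed for drip loss, SLC28A1 and SLC35B1 were related to each other and to the metal importer SLC39A14. Pairs from here on were chosen after their values were seen, and each had an adjusted permutation p over all pairs of 0.00021 for r and 0.00029 for rho unless given otherwise. SLC39A14 ran with SLC28A1 (r = 0.617, rho = 0.535) and against SLC35B1 (r = -0.572, rho = -0.521). Centred within blocks these were 0.611 and -0.545, and without the low-correlation arrays 0.556 and -0.460. SLC28A1 and SLC35B1 gave r = -0.432 and rho = -0.347, with r = -0.312 without the low-correlation arrays. SLC39A14 had a median of 8.09 on the low-correlation arrays, against 7.91 on the other arrays, and SLC35B1 had 8.96 there against 9.19. SLC25A4 gave r = -0.450 and rho = -0.311 with SLC39A14 (adjusted permutation p 0.00021 and 0.00049), with r = -0.249 without the low-correlation arrays. With SLC28A1 it gave r = -0.230 and rho = -0.097 (adjusted permutation p 0.0072 and 0.367), with r = -0.027 without the low-correlation arrays. On drip loss SLC39A14 had a slope of -0.030 ± 0.013 with a limma adjusted p of 0.182. A second, dimmer SLC39A14 probe set, with a mean of 5.39, had a slope of 0.037 ± 0.018 (limma adjusted p 0.249). Its r with the one used was 0.078, so the pairs of SLC39A14 rest on 1 probe set.

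The lactate carrier SLC16A3 followed SLC37A4, the glucose-6-phosphate transporter, most closely (r = 0.536, rho = 0.424, r = 0.409 without the 2 animals farthest from the median of SLC16A3, r = 0.555 centred within blocks). Its next partners were SLC44A2 (r = 0.452, rho = 0.370), SLC35A4 (r = 0.429, rho = 0.406) and SLC25A11 (r = 0.426, rho = 0.310), none of them a glucose transporter. The glucose transporters SLC2A3 and SLC2A4 ran opposite to each other (r = -0.424, rho = -0.297, r = -0.343 without the low-correlation arrays). With the macrophage marker mean SLC2A3 gave r = 0.459 and rho = 0.353, and SLC2A4 r = -0.397 and rho = -0.271. The part of those markers in this pair was not tested. SLC5A4, the most variable SLC gene, had no such partner, and its r with any other SLC gene lay between -0.186 and 0.156.

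For the 3' to 5' difference the permutation p, after adjustment over 351 relations, was under 0.05 for r in 42 SLC genes and for rho in 35. This count was not made over all genes, so it is not read as particular to SLC genes. A Pearson r beyond 0.5 in size was found for 6 of the SLC genes, or 5.13%, beside 2.41% of all genes, and the median size of r was 0.113, beside 0.130 over all genes. The genes named here were chosen after their values were seen, and both have means near the median probe set, 6.30 and 6.37. SLC26A3, a chloride-bicarbonate exchanger of the gut, gave r = -0.738 and rho = -0.754, and SLC29A1, the equilibrative nucleoside transporter, r = -0.712 and rho = -0.706. For both genes the permutation p was 1e-05, the smallest the permutations can give, and the adjusted p over 351 relations was 6.5e-05 for r and 8.8e-05 for rho. Without the 2 farthest animals r was -0.721 and -0.702, and centred within blocks -0.705 and -0.674. SLC26A3 and SLC29A1 formed the second closest pair of SLC genes (r = 0.659, rho = 0.672), and after regression of both on the 3' to 5' difference their r was 0.283. For SLC25A3 and SLC25A4 the same step left r at 0.765, and for SLC28A1 and SLC39A14 at 0.607.

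**Figure D4:**
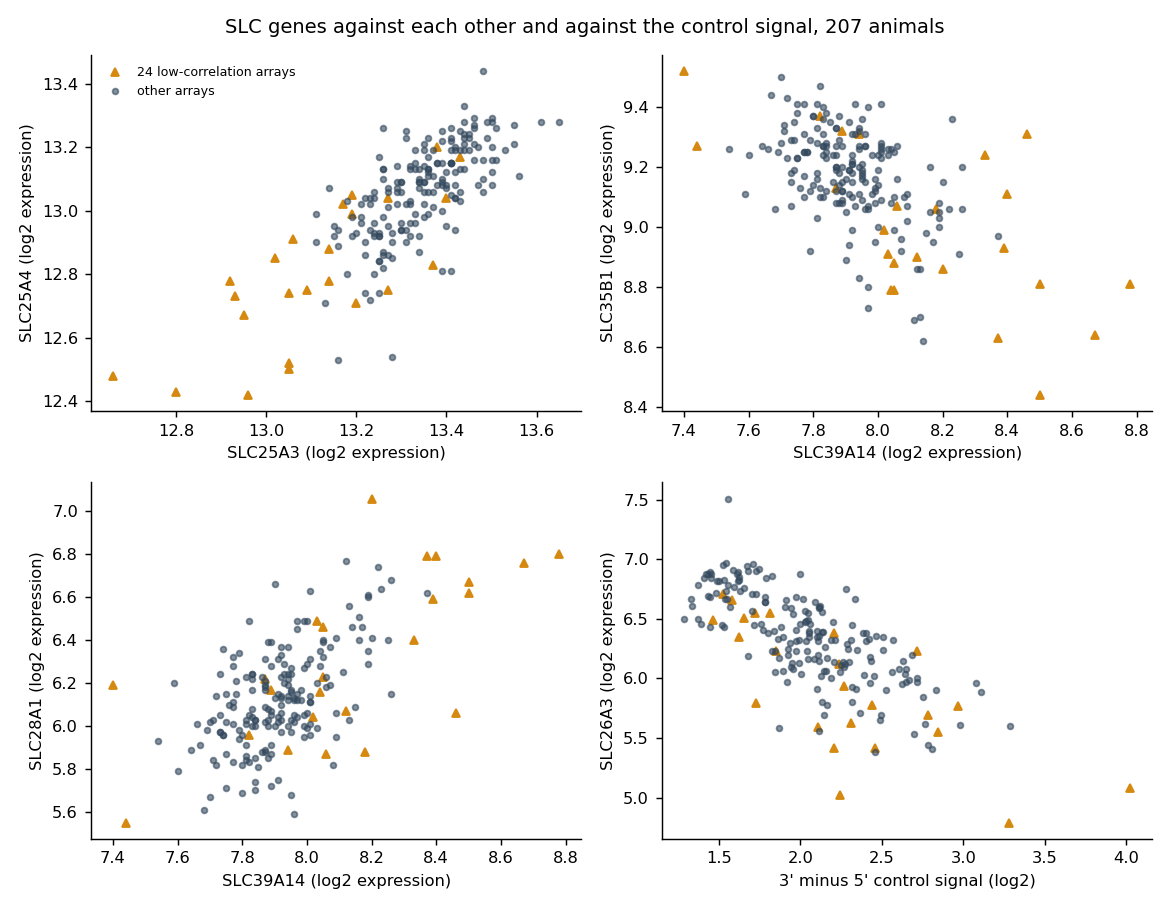
Log2 expression of SLC25A4 against SLC25A3, of SLC35B1 and of SLC28A1 against SLC39A14, and of SLC26A3 against the difference between 3' and 5' control signals in log2 units, with 1 point per animal (207). Triangles mark the 24 low-correlation arrays. SLC25A4 climbs with SLC25A3 (r = 0.767) and SLC26A3 declines along the control signal (r = -0.738).

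A single array set the upper end of several SLC genes. It had the highest mean of the 6 macrophage markers measured, 8.81 against a next value of 8.58 and a median of 6.97, it was the array with the lowest median correlation, and 4 of the 6 markers peaked on it. The array was picked by its marker mean, so marker peaks on it follow in part from that choice. On that array 11 SLC genes had their highest value, and how many of all genes peaked there was not counted. SLC11A1, known from macrophages and neutrophils, stood at 10.80 there, against a next value of 9.71. The fructose transporter SLC2A5 stood at 11.06, against 9.05. SLC2A3 stood at 9.19, against 8.0, and the glutamine transporter SLC1A5 at 8.50, against 8.26. Without that array the SD was 0.35 for SLC11A1, against 0.49 with it, and 0.21 for SLC2A5, against 0.29.

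Over all animals SLC1A5 went with the mean of the macrophage markers (r = 0.614, rho = 0.522, and r = 0.516 without the 2 farthest animals). SLC2A3 did so less closely (r = 0.459, rho = 0.353, and r = 0.345 without the 2 farthest animals). For these the permutation p was 1e-05 and the adjusted p over 351 relations 6.5e-05 for r and 8.8e-05 for rho. SLC11A1 gave r = 0.465 and rho = 0.220 (permutation p 1e-05 and 0.00156, adjusted 6.5e-05 and 0.00676), and its r was 0.185 without the 2 farthest animals and 0.220 without the low-correlation arrays. Macrophage markers did not pass for drip loss in limma (0 of 6, beside 6.08% of all genes, so the count says little). Without the array the same 3 SLC genes passed.

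**Figure D5:**
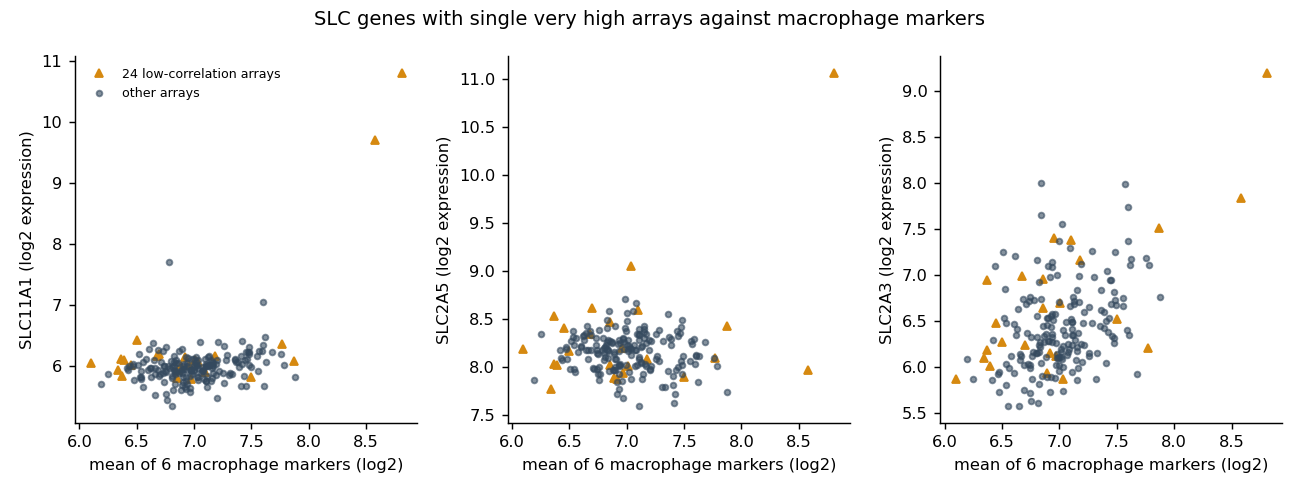
Log2 expression of SLC11A1, SLC2A5 and SLC2A3 against the mean of 6 macrophage markers, with 1 point per animal (207). Triangles mark the 24 low-correlation arrays. A single array lies at a marker mean of 8.81 with the highest value of all 3 genes, and SLC2A3 also climbs with the markers among the other animals.

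Of the SLC genes, 78 were measured by 1 probe set and 39 by several. The 56 further probe sets had Pearson r with the probe set used between -0.294 and 0.766 over the animals, with a median of 0.127, given as a description across probe sets. Among the 12 of them with a mean above the median probe set, the median r was 0.463. None of the 56 passed for either trait in limma. SLC35B1, SLC25A4, SLC28A1 and SLC16A3 each had a single probe set, so their results have no check by a further one.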

How the data were processed

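Per the submitters' processing notes the authors used GCOS 1.1.1 and PLIER, and they deposited log2 values for each probe set. Scaling between arrays is not given in the sources used here, and no further normalization was done. Precision is limited by how many arrays there are. Of 24123 probe sets 188 controls were left out. The array annotation gave 10069 of the 23935 tested probe sets 1 symbol, 198 several and 13668 none. A further 5 SLC probe sets had several symbols and were left out. The rule gave 117 genes measured by 173 probe sets, and of these genes 116 matched a reference gene table with the same symbol.

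Slopes per SD of a trait came from limma 3.58.1 (lmFit, eBayes; R 4.3.3), two-sided, with Benjamini-Hochberg adjustment over all tested probe sets and a threshold of 0.05. The difference of slopes came from a fit of both traits in 199 animals. Correlations used 100000 permutations in Python 3.11.15. Replicates were animals, 1 array each, and no 2 arrays held identical values. The pipeline was tested on simulated data.

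Named were, per trait, members past the threshold, up to 12 in each direction, the 10 highest means, the 10 largest SDs and a written list of muscle carriers, of which SLC16A1, SLC8A3 and others were not analysed here. That rule gave 25 members. Members, classes, lists and tests were chosen with earlier results of these data known. Alternatives were quantile normalization, brighter probe sets only, blocks or series of title numbers, arrays left out, covariates, trait scale and moderation. Leaving out the array with the highest macrophage markers, and the alternatives to the difference of slopes, were added after seeing the data.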

Additional observations from a re-analysis of the deposited data

How the results depend on the processing

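Against 3 SLC genes passing for drip loss in limma, 0 passed with blocks of title numbers, in the higher number series alone or with 5 principal components as covariates. In the lower series alone, with the 3' to 5' difference or the EIF1AY and SRY component as a covariate, or without the low-correlation arrays, 1 passed, and with the blood cell marker mean 5 passed. For fat area 2 passed with 5 principal components, against 0. For the SLC25 genes 0 passed, against 1, under all of these and under quantile normalization, normal scores and without the 2 animals most extreme in the trait. For the plasma membrane genes, against 1, 0 passed with blocks, either series, the 3' to 5' difference, 5 principal components, EIF1AY and SRY, or without the low-correlation arrays, 2 among brighter probe sets or without these 2 animals, and 3 with blood cell markers. The difference of the slopes passed for 0 genes with blocks and for 2 with 5 principal components, against 1. Of the 6 prepared pairs 4 passed for r, and 2 without the low-correlation arrays. Single number series hold fewer animals; for the other settings the cause was not tested. Of the slopes of named genes under single alternatives, 21 lost the threshold, 1 gained it and 0 reversed a called sign.

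No paired analysis was possible because all animals form a single group and the numbers in their titles pair nothing. Dim SLC genes near the floor limit what a slope can show, and blocks cannot be told apart from slaughter day or array batch, which the labels do not give.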

Other observations

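After the 3 genes that passed, the lowest adjusted p for drip loss among the probe sets used were those of SLC6A4, SLC31A1 and SLC11A2. They are named here after their values were seen, and none of the 3 passed in limma. A further SLC37A4 probe set, with a mean of 10.73 against 11.37, had a slope of 0.080 ± 0.027 log2 units per SD (limma adjusted p 0.059). The SLC37A4 probe set used had 0.060 ± 0.022 (limma adjusted p 0.091), with r = 0.687 between both. SLC6A4, the serotonin transporter, had a median of 5.18, below the median probe set, and a slope of 0.050 ± 0.017 log2 units per SD of drip loss (limma adjusted p 0.067). SLC31A1, the copper importer, ran from 6.11 to 7.73 with a median of 6.81 and had a slope of -0.056 ± 0.020 (limma adjusted p 0.074). A second, dimmer SLC31A1 probe set had a slope of 0.0075 ± 0.015 (limma adjusted p 0.842) and r = -0.223 with the one used. SLC11A2, which imports ferrous iron, ran from 6.40 to 7.40 with a median of 6.99 and had a slope of 0.034 ± 0.012 (limma adjusted p 0.081). A second SLC11A2 probe set of nearly the same mean, 6.97 against 6.98, had a slope of 0.011 ± 0.018 (limma adjusted p 0.806) and r = 0.135 with the one used.

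SLC6A4, SLC31A1 and SLC11A2 were also related to the 3' to 5' difference. SLC31A1 gave Pearson r = 0.508 and Spearman rho = 0.589, and SLC11A2 gave r = -0.365 and rho = -0.392, all with an adjusted permutation p over 351 relations of 6.5e-05 for r and 8.8e-05 for rho. SLC6A4 gave r = -0.240 and rho = -0.230 (adjusted permutation p 0.0024 and 0.0046). With that difference as a covariate the slopes were 0.043 ± 0.017 for SLC6A4, -0.037 ± 0.017 for SLC31A1 and 0.026 ± 0.011 for SLC11A2, with limma adjusted p of 0.155, 0.243 and 0.219.

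The lysosomal amino acid sensor SLC38A9 ran opposite to the translocase SLC25A6 (Pearson r = -0.504, Spearman rho = -0.331, adjusted permutation p over all pairs 0.00021 and 0.00029). This pair was outside the prepared list and chosen after its values were seen. Its r was -0.276 without the low-correlation arrays and -0.519 centred within blocks. With the median correlation of the arrays SLC38A9 gave r = 0.527 and rho = 0.335, and SLC25A6 r = -0.457 and rho = -0.302. The part of that measure in the pair was not tested. A second SLC38A9 probe set, with a mean of 6.95 against 8.77, had r = -0.183 with the one used.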
